A study of Mus musculus with 9 samples.

Results

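The 10 genes described here mark the endothelium, the cell layer that lines blood vessels, or encode the adhesion molecules by which it captures leukocytes. They were taken by gene symbol, ignoring case, from the annotation of the arrays, where they stand in capitals as PECAM1, CDH5, KDR, TEK, VWF, ICAM1, ICAM2, VCAM1, SELE and SELP, and are 10 of 17742 genes with a probe. All 10 were measured, on 12 probes, 3 of which belong to Pecam1. Shaved back skin of female BALB/c mice was treated daily for 7 days, and Cy5-labelled total RNA was measured on 9 one-colour arrays, 3 in each of 3 groups. The group called vanillin received imiquimod (IMQ) on the skin and 100 mg/kg of vanillin by mouth. The IMQ group received imiquimod alone, a toll-like receptor 7 agonist with which psoriasis-like inflammation is raised in mice, and the mock group received Vaseline cream. No group received vanillin without imiquimod. The labels give no age.

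Leukocytes leave the blood in steps. Selectins on the activated endothelium bind sugar-bearing ligands such as PSGL-1 and slow the cell to a roll, immunoglobulin-type molecules (ICAM-1, ICAM-2, VCAM-1) then bind leukocyte integrins and hold it, and PECAM-1 and VE-cadherin at the junctions take part in its passage through the wall. Inflammatory cytokines induce E-selectin, VCAM-1 and ICAM-1 through NF-kB in cultured endothelium, whereas VE-cadherin, ICAM-2 and the receptors for vessel growth factors are made by resting endothelium. In psoriatic skin the dermal capillaries are known to widen and to display adhesion molecules.

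Values are log2 of the deposited intensity, which the authors had already made equal in distribution across arrays, so a change of total signal cannot be seen. Each difference comes from limma fitted over all 9 arrays, with Benjamini-Hochberg adjustment over all 26423 probes. An adjusted p under 0.05 is the threshold for a call. Whether each array stands for a mouse of its own is not stated, so the p-values reflect the spread among arrays alone, part or all of which may be technical. Median intensities ran from 629 to 631, and the small number of arrays limits the precision. The tissue label names skin and the extraction text names muscle. Basal keratinocyte genes had a median intensity percentile of 97.5 among all probes, skeletal muscle genes one of 98.9 and a list of 21 further endothelial genes one of 70.7. The dimmest of those 21 was Erg, an endothelial transcription factor, at percentile 16.8.

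Cdh5, Icam2, Tek, Kdr and Icam1 were lower in IMQ than in mock skin, and Vcam1 and Sele were higher. Against mock skin, 7 of the 10 genes were called, 2 higher and 5 lower, beside 53.6% of all probes called (24.0% higher and 29.6% lower), so the share of lower calls stood above that of all probes and the share of higher calls near it. The median difference of the 10 genes was -0.32 log2 units, against -0.04 over all probes. With vanillin added, 6 of the 10 genes were higher than in IMQ skin and 0 were called lower, beside 41.2% of all probes called (24.3% higher and 17.0% lower). The median difference was 0.57, against 0.03 over all probes. Both comparisons use the same 3 IMQ arrays, so opposite signs between them are favoured by the design. Against mock skin the vanillin group had 4 genes called higher and 2 lower, beside 26.7% of all probes called (11.9% higher and 14.7% lower). In these bulk samples fewer endothelial cells and less RNA per cell cannot be told apart.

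**Figure D1:**
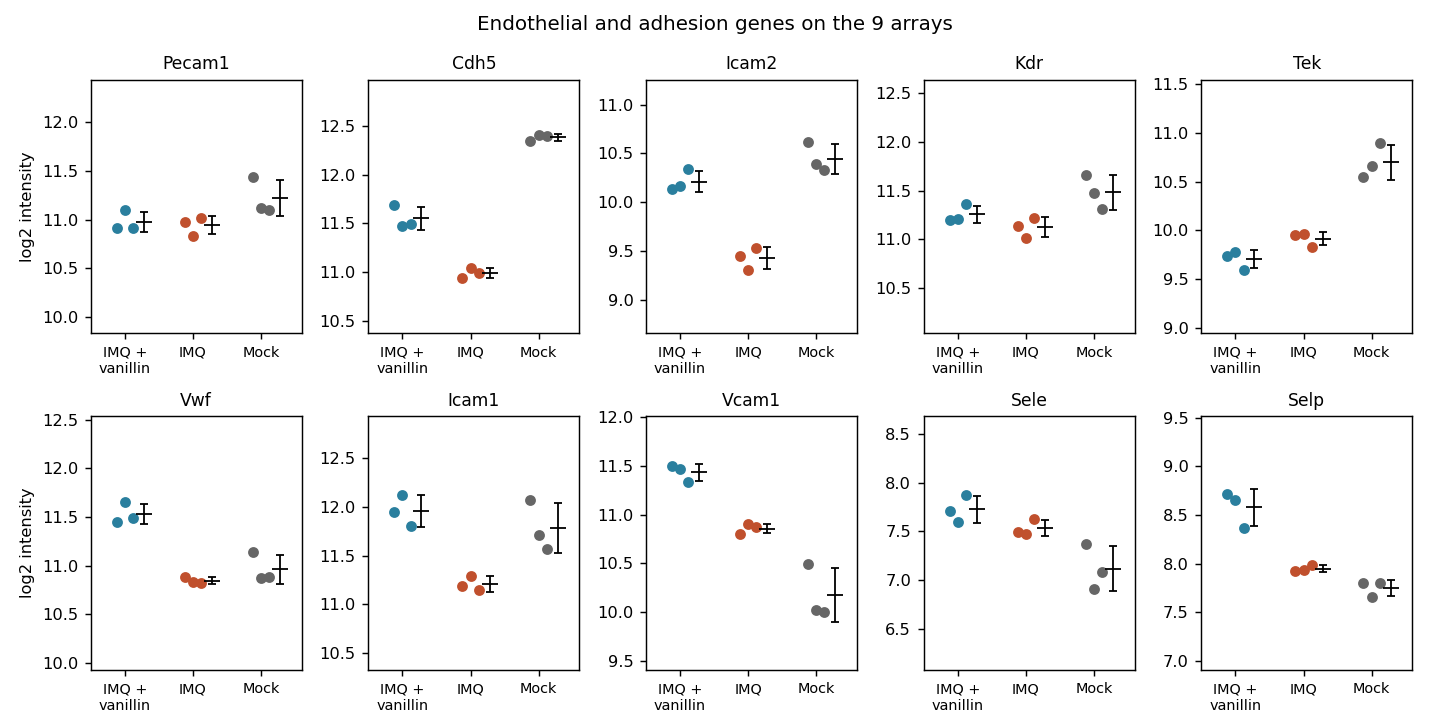
Log2 intensity (vertical axis, each panel spanning the same range) of the 10 genes on each array, with the mean and SD of 3 arrays as a bar beside the points. Cdh5 and Tek are highest on the mock arrays, and Vwf, Vcam1 and Selp are highest on the vanillin arrays.

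Cdh5 encodes VE-cadherin, the adhesion protein of endothelial junctions. It read 11.69, 11.47 and 11.50 on the vanillin arrays, 10.94, 11.04 and 10.99 on the IMQ arrays and 12.35, 12.40 and 12.40 on the mock arrays. The 3 groups lay apart without overlap, with vanillin skin between the others. Cdh5 was 2.63-fold lower in IMQ than in mock skin (log2 difference -1.39 ± 0.09, SE, adjusted p = 8.26e-06) and 1.48-fold higher in vanillin than in IMQ skin (0.56 ± 0.09, adjusted p = 0.00234). It stayed 1.78-fold lower in vanillin than in mock skin (-0.83 ± 0.09, adjusted p = 0.000191).

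Icam2 encodes a ligand of the leukocyte integrin LFA-1 that resting endothelium carries. Its values were 10.13, 10.17 and 10.34 in vanillin skin, 9.45, 9.30 and 9.53 in IMQ skin and 10.61, 10.39 and 10.33 in mock skin. The IMQ arrays were the lowest, and the vanillin and mock arrays overlapped by a narrow margin. Icam2 fell by 1.02 ± 0.11 (SE) in IMQ against mock skin (2.03-fold lower, adjusted p = 0.000111) and was 1.73-fold higher in vanillin than in IMQ skin (0.79 ± 0.11, adjusted p = 0.00176). Vanillin against mock gave -0.23, with a 95% interval of -0.48 to 0.02 (adjusted p = 0.163), so a deficit of up to 0.48 log2 units lies within the error.

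Tek encodes TIE2, the receptor for angiopoietins, and followed another course. It read 9.74, 9.78 and 9.60 in vanillin skin, 9.95, 9.96 and 9.84 in IMQ skin and 10.55, 10.66 and 10.90 in mock skin. The vanillin arrays were the lowest of all 9, without overlap with the IMQ arrays. Tek was lower than in mock skin by 1.72-fold in IMQ skin (-0.78 ± 0.11, SE, adjusted p = 0.000416) and by 1.99-fold in vanillin skin (-0.99 ± 0.11, adjusted p = 0.000242). The difference of vanillin from IMQ skin was -0.21 ± 0.11 and did not pass the test (95% interval -0.46 to 0.04, adjusted p = 0.154), although it was called with array weights (adjusted p = 0.0496).

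Kdr encodes VEGFR2, the main signalling receptor of vascular endothelial growth factor. The arrays read 11.20, 11.21 and 11.36 in vanillin skin, 11.14, 11.01 and 11.22 in IMQ skin and 11.66, 11.47 and 11.31 in mock skin. IMQ and mock arrays did not overlap, but the gap between them was small beside the spread of the mock arrays. The fall of 0.36 ± 0.11 (SE) in IMQ skin passed the test (adjusted p = 0.0237) but not when mock replicate 1 or 2 or IMQ replicate 1 or 2 was left out (adjusted p = 0.0587, 0.0544, 0.0617 and 0.0862). Vanillin against IMQ read 0.13 ± 0.11 (adjusted p = 0.365) and vanillin against mock -0.23 ± 0.11 (adjusted p = 0.179).

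Pecam1 encodes CD31, found at endothelial junctions and also on platelets and some leukocytes, and its 3 probes disagreed in size. The brightest probe, which stood for the gene, read 10.91, 11.09 and 10.91 in vanillin skin, 10.98, 10.84 and 11.02 in IMQ skin and 11.44, 11.12 and 11.10 in mock skin. Its differences did not pass the test, at -0.28 ± 0.12 (SE) for IMQ against mock (adjusted p = 0.0708, called with array weights at -0.17, adjusted p = 0.0312), 0.03 ± 0.12 for vanillin against IMQ (adjusted p = 0.855) and -0.25 ± 0.12 for vanillin against mock (adjusted p = 0.156). Both dimmer probes were called lower in IMQ than in mock skin, one by 3.33-fold (-1.73 ± 0.16, adjusted p = 4.67e-05) and the other by 2.31-fold (-1.21 ± 0.14, adjusted p = 0.000176).

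With vanillin those dimmer probes parted. The first read 9.08, 9.03 and 8.61 in vanillin skin, 7.86, 8.03 and 7.71 in IMQ skin and 9.83, 9.49 and 9.48 in mock skin, and was 2.05-fold higher in vanillin than in IMQ skin (adjusted p = 0.00224). The second read 8.60, 8.33 and 8.27 in vanillin skin, 8.19, 8.48 and 8.23 in IMQ skin and 9.27, 9.57 and 9.68 in mock skin. Its vanillin and IMQ arrays overlapped, and the difference of 0.10 ± 0.14 (SE) did not pass the test (adjusted p = 0.599). Both were still lower in vanillin than in mock skin, at -0.69 ± 0.16 (adjusted p = 0.0111) and -1.11 ± 0.14 (adjusted p = 0.000592). The labels and annotation do not say which transcripts each probe detects.

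**Figure D2:**
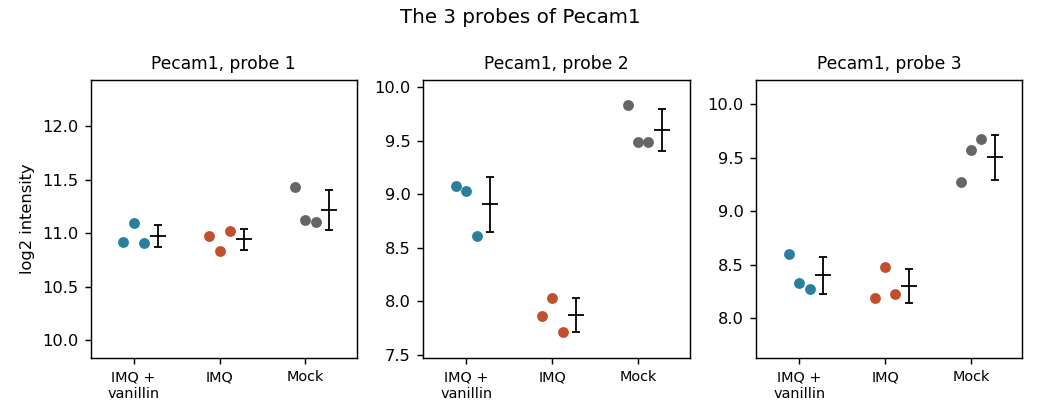
Log2 intensity of the 3 Pecam1 probes (panels, brightest first, each spanning the same range) on each array, with mean and SD of 3 arrays. Both dimmer probes are low on the IMQ arrays against mock, at -1.73 and -1.21, and of these only the middle panel has all vanillin arrays above the IMQ arrays.

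Vwf encodes von Willebrand factor, which endothelium and platelets store and release, and which tethers platelets to a damaged wall. It read 11.45, 11.65 and 11.49 in vanillin skin, 10.89, 10.83 and 10.82 in IMQ skin and 11.14, 10.87 and 10.88 in mock skin. The IMQ and mock arrays overlapped, and all vanillin arrays lay above both. IMQ against mock read -0.12 ± 0.10 (SE, adjusted p = 0.362), whereas vanillin skin was 1.61-fold higher than IMQ skin (0.68 ± 0.10, adjusted p = 0.00207) and 1.48-fold higher than mock skin (0.57 ± 0.10, adjusted p = 0.00347).

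**Figure D3:**
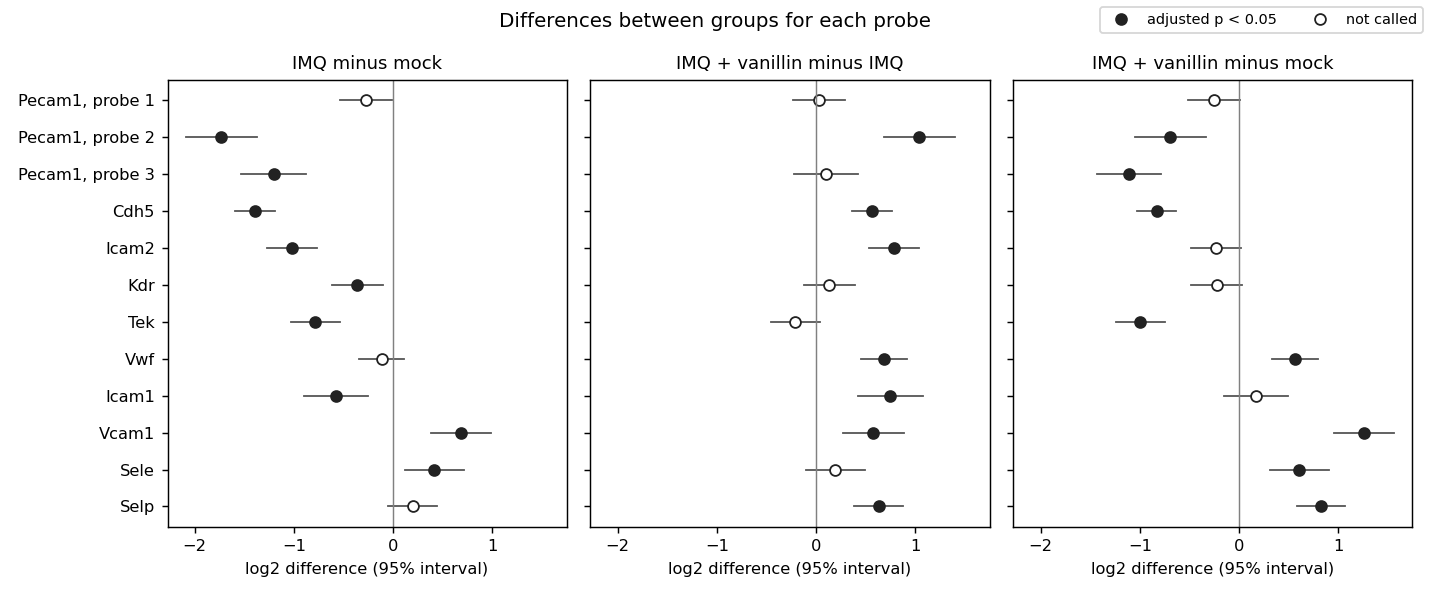
Log2 difference between groups (horizontal axis) with its 95% interval for each of the 12 probes, in 3 panels, where filled points were called. Cdh5, Icam2, Tek and both dimmer Pecam1 probes lie below 0 for IMQ against mock, and no filled point lies below 0 for vanillin against IMQ.

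The inducible adhesion molecules did not move as a block. Their promoters are shown for 3 of the 4, since NF-kB is the known route of their induction and these 250 bases before the RefSeq start (GRCm38.p6, plus strand) are the window given for them, with matches to the NF-kB type motif GGNNNTTCC, on either strand, in capitals.
Icam1, chr9:21015690-21015939: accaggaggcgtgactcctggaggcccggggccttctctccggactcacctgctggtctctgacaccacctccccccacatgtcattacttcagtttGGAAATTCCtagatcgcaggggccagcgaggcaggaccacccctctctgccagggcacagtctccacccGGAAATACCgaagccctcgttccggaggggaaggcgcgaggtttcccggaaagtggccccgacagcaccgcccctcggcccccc
Sele, chr1:164047984-164048233: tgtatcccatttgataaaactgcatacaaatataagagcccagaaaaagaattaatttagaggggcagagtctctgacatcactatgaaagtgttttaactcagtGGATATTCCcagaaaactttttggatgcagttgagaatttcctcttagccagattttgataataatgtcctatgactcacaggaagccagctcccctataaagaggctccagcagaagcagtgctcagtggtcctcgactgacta
Selp, chr1:164115014-164115263: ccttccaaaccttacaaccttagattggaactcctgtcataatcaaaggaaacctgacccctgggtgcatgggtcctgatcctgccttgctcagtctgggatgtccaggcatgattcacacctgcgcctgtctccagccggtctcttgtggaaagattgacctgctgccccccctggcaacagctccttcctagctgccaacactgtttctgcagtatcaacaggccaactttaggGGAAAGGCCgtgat

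RefSeq windows were at hand for 5 of the 10 genes, and the motif was in those of Icam1, Sele and Selp and not in those of Kdr and Tek. It was also in 15.7% of 32851 such windows of all genes. The first Icam1 match, 153 to 145 bases before the start, reads as the motif on both strands, and the Sele match lies 145 to 137 bases before it. A TGANTCA (AP-1 type) match lay 73 to 67 bases before the start of Sele and 139 to 133 before that of Selp, and 6.75% of all windows held one. Sele also had a TATAAA match 49 to 44 bases before its start, as did 12.4% of windows. A GGGCGG (GC box) match, in 32.7% of all windows, was in those of Icam1 and Kdr. All 4 motifs were searched on both strands, and these letter matches were not tested for binding.

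Icam1, the ligand of LFA-1 and Mac-1 that is made by endothelium, keratinocytes and leukocytes, went down with imiquimod. It read 11.94, 12.13 and 11.80 in vanillin skin, 11.19, 11.29 and 11.14 in IMQ skin and 12.07, 11.71 and 11.57 in mock skin. The IMQ arrays were the lowest, and the vanillin and mock arrays overlapped. Icam1 was 1.49-fold lower in IMQ than in mock skin (-0.57 ± 0.14, SE, adjusted p = 0.00848) and 1.68-fold higher in vanillin than in IMQ skin (0.75 ± 0.14, adjusted p = 0.00474). Vanillin against mock read 0.17, with a 95% interval of -0.15 to 0.50 (adjusted p = 0.413), and was called with array weights (0.29, adjusted p = 0.0425).

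Vcam1, the ligand of the integrin VLA-4 on lymphocytes and monocytes, was higher in IMQ skin and higher again in vanillin skin. The values were 11.50, 11.46 and 11.34 in vanillin skin, 10.80, 10.90 and 10.87 in IMQ skin and 10.489, 10.024 and 10.001 in mock skin. The 3 groups did not overlap. Vcam1 rose 1.61-fold in IMQ against mock skin (0.68 ± 0.13, SE, adjusted p = 0.00261) and was 1.49-fold higher in vanillin than in IMQ skin (0.58 ± 0.13, adjusted p = 0.0104). Against mock skin the vanillin group was 2.40-fold higher (1.26 ± 0.13, adjusted p = 0.000205).

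Both selectin probes were dim, Sele at intensity percentile 26.8 and Selp at 35.0 of all probes, where a fold change can be understated. Sele, which encodes the E-selectin of activated endothelium, read 7.71, 7.60 and 7.88 in vanillin skin, 7.496, 7.478 and 7.628 in IMQ skin and 7.37, 6.91 and 7.08 in mock skin. All arrays of the treated groups lay above the mock arrays, and the vanillin and IMQ arrays overlapped. Sele was 1.33-fold higher in IMQ than in mock skin (0.42 ± 0.13, SE, adjusted p = 0.0246), a call lost without mock replicate 2 or 3 or IMQ replicate 1 or 3 (adjusted p = 0.0847, 0.0653, 0.0566 and 0.0876). Vanillin skin was 1.53-fold higher than mock skin (0.61 ± 0.13, adjusted p = 0.00859), and its difference from IMQ skin was 0.19, with a 95% interval of -0.10 to 0.49 (adjusted p = 0.262).

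Selp encodes P-selectin, which endothelium and platelets hold in storage granules. It read 8.71, 8.66 and 8.36 in vanillin skin, 7.92, 7.93 and 7.99 in IMQ skin and 7.80, 7.66 and 7.80 in mock skin. The vanillin arrays stood above all others, and the IMQ arrays lay just above the mock arrays. IMQ against mock read 0.20 ± 0.11 (SE, adjusted p = 0.154) and was called with array weights (0.25, adjusted p = 0.00217). Vanillin skin was 1.55-fold higher than IMQ skin (0.63 ± 0.11, adjusted p = 0.00321) and 1.77-fold higher than mock skin (0.83 ± 0.11, adjusted p = 0.000616).

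Further genes of endothelium were mostly lower in IMQ than in mock skin, as Cdh5 was. Of 21 measured, 2 were called higher, 14 lower and 5 not called for IMQ against mock, with a median of -0.37 log2 units. Over all probes 24.0% were called higher and 29.6% lower in that comparison, and 24.3% and 17.0% for vanillin against IMQ. For vanillin against mock 11.9% of all probes were called higher and 14.7% lower. The same shares apply to every list below. Gpihbp1, which carries lipoprotein lipase to the capillary lumen, fell by 1.56 ± 0.14 (SE, adjusted p = 3.96e-05), the guidance receptor gene Robo4 by 1.29 ± 0.12 and Cd34, also a marker of other cells such as hair follicle stem cells, by 0.79 ± 0.07. Rasip1, which acts in vessel lumen formation, went the other way at 2.43 ± 0.23 (adjusted p = 5.95e-05) on its only probe. Flt1, which encodes VEGFR1, a decoy for the same growth factor as KDR, fell by 0.36 ± 0.10 (adjusted p = 0.0113), a call lost without IMQ replicate 3 (adjusted p = 0.0510).

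For vanillin against IMQ 7 of the 21 were higher, 2 lower and 12 not called, with a median of 0.17. Gpihbp1 was higher by 0.77 ± 0.14 (SE, adjusted p = 0.00377), Rasip1 fell by 2.06 ± 0.23 (adjusted p = 0.000953), while Robo4 (0.18 ± 0.12) and Cd34 (-0.08 ± 0.07) were not called. Against mock skin in turn 0 were higher and 10 lower, with a median of -0.28, and Robo4 and Cd34 remained among the lower ones at -1.11 ± 0.12 and -0.87 ± 0.07. No gene of this list was called higher in vanillin than in mock skin (1 was with array weights), whereas Vwf, Vcam1, Sele and Selp were. The difference between the 2 sets was not tested. Over all alternatives run, the lower calls for IMQ against mock lay between 10 and 18 of 21 and the higher calls stayed at 2. The summed intensity of the 21 genes ran from 97337 to 99959 in vanillin skin, 99470 to 101686 in IMQ skin and 130482 to 146502 in mock skin, so the sums of the vanillin and IMQ arrays overlapped. Such a sum is weighted toward the brightest genes. The mean log2, in which each gene counts equally, did not overlap between groups. It ran from 10.75 to 10.82 in vanillin skin, 10.64 to 10.68 in IMQ skin and 11.02 to 11.22 in mock skin.

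Among the growth factors and receptors that act on vessels 3 of 10 were higher, 4 lower and 3 not called in IMQ against mock skin, with a median of -0.08. Vegfa, the ligand of KDR and FLT1, read 0.03 ± 0.07 (SE, adjusted p = 0.784) in IMQ against mock skin and -0.17 ± 0.07 (adjusted p = 0.102) in vanillin against IMQ skin. The lipase inhibitor gene Angptl4 fell by 2.10 ± 0.12 with imiquimod (adjusted p = 4.75e-06) and read -0.06 ± 0.12 for vanillin against IMQ. Nrp1, a co-receptor of VEGFR2, fell by 0.98 ± 0.09 with imiquimod and was higher by 0.77 ± 0.09 with vanillin (adjusted p = 0.000917), but its dimmer probe read -0.01 for vanillin against IMQ. Of the TIE2 ligands Angpt1 read -0.19 ± 0.12 for IMQ against mock (adjusted p = 0.203), while Angpt2 was higher by 0.54 ± 0.15 (adjusted p = 0.0155), a call lost without mock replicate 1. Angpt4 was higher as well, by 0.63 ± 0.14 (adjusted p = 0.00543). In vanillin against IMQ skin Angpt2 read -0.85 ± 0.15 (SE, adjusted p = 0.00383) and Angpt4 -0.58 ± 0.14 (adjusted p = 0.0131), the call of Angpt4 being lost without IMQ replicate 3 (adjusted p = 0.0501).

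Of 10 measured leukocyte counter-receptors of these adhesion molecules, 6 were higher, 1 lower and 3 not called in IMQ against mock skin, with a median of 0.74. Bulk samples do not show whether leukocytes or other skin cells made these transcripts, Cd44 and Itgb1 among them. Itgam, the alpha chain of Mac-1, rose by 1.38 ± 0.08 (SE, adjusted p = 4.36e-06), the hyaluronan receptor Cd44 by 1.57 ± 0.12, Selplg, which encodes the selectin ligand PSGL-1, by 0.93 ± 0.08 (0.33 ± 0.28 on its dimmer probe, not called) and the sialomucin Spn by 0.79 ± 0.09. The LFA-1 chains Itgal (1.06 ± 0.26, adjusted p = 0.00841) and Itgb2 (0.69 ± 0.13, adjusted p = 0.00229) also rose. Itgax, an integrin alpha chain of myeloid cells that pairs with the same beta chain, was the 1 gene called lower, at -0.46 ± 0.15 (adjusted p = 0.0296), a call lost without mock replicate 1 or 3 or IMQ replicate 1 or 3. The VLA-4 chains Itga4 (0.23 ± 0.12, adjusted p = 0.138) and Itgb1 (-0.12 ± 0.10, adjusted p = 0.337) were not called, although the dimmer probe of Itgb1 was called lower (-0.96 ± 0.08).

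With vanillin 2 of the 10 were higher than in IMQ skin, 2 lower and 6 not called, with a median of -0.11. The higher genes were Itgax, at 0.67 ± 0.15 (SE, adjusted p = 0.00933), and Itgb1, at 0.59 ± 0.10 (adjusted p = 0.00289). Cd44 fell by 0.80 ± 0.12 (SE, adjusted p = 0.00232) and Itgal by 0.91 ± 0.26 (adjusted p = 0.0230), the second a call lost without IMQ replicate 1 or 3 or vanillin replicate 1 or 2. Without mock replicate 1, 4 of the 10 were called lower. Itgam (-0.18 ± 0.08), Selplg (-0.19 ± 0.08), Spn (0.06 ± 0.09) and Itgb2 (-0.32 ± 0.13) did not pass the test. Against mock skin 6 of the 10, Itgam among them, were higher in vanillin skin and 0 lower, beside 11.9% and 14.7% of all probes.

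**Figure D4:**
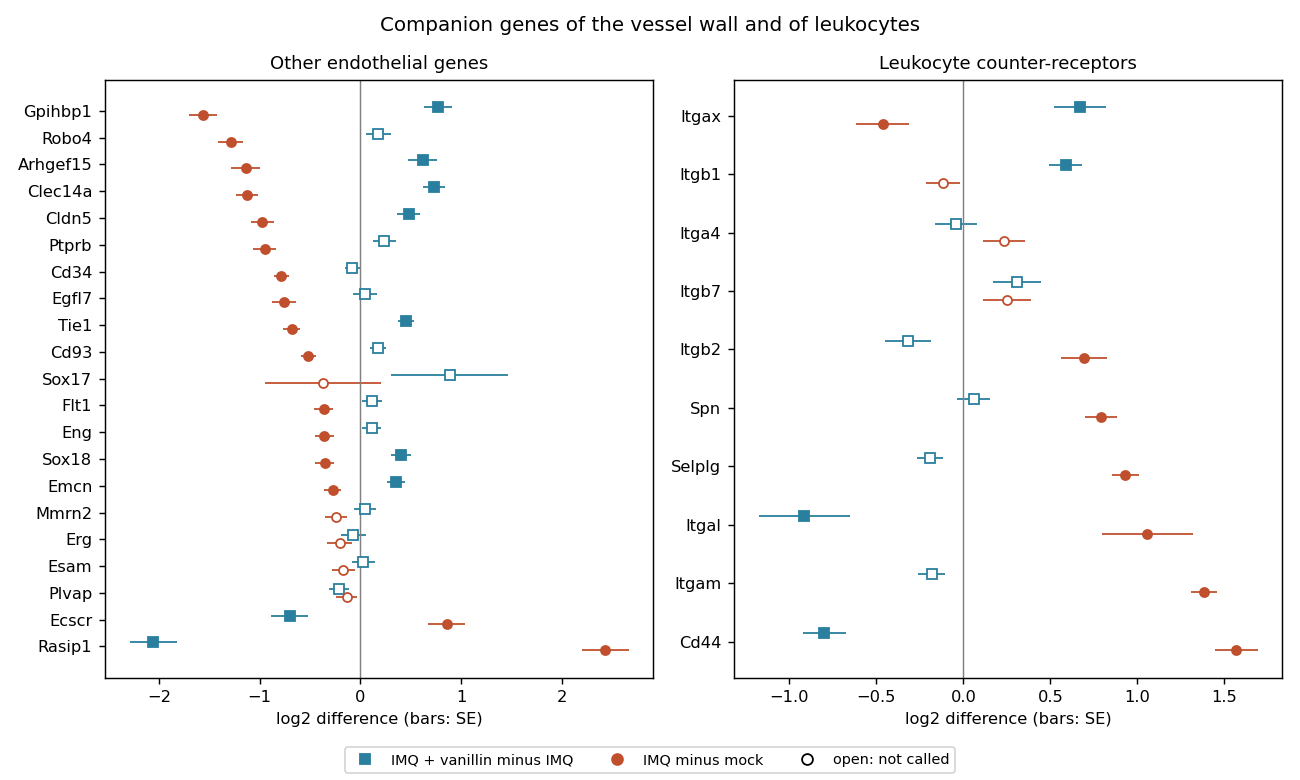
Log2 differences (horizontal axis, bars are SE, filled symbols were called) of 21 other endothelial genes and 10 leukocyte counter-receptors, for vanillin against IMQ (squares) and IMQ against mock (circles). For IMQ against mock 14 of the 21 endothelial genes were called lower and 6 of the 10 counter-receptors higher.

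Of 8 enzymes that build selectin ligands, 1 was called higher and 5 lower in IMQ against mock skin (median -0.44), and 3 higher and 1 lower in vanillin against IMQ skin (median 0.06). The sialyltransferases St3gal4 and St3gal6 fell by 0.81 ± 0.11 and 0.78 ± 0.11 (SE) with imiquimod. The counts take each gene by its brightest probe, and for the sulfotransferase gene Chst2 the probes were called in opposite directions, the brighter at -0.97 and the dimmer at 0.91 in IMQ against mock skin, and at 1.03 and -0.83 in vanillin against IMQ skin. Among 11 junction and transmigration genes 1 was higher and 5 lower (median -0.36), with Ocln, a tight junction protein, at -0.91 ± 0.10 and the junctional molecule Jam2 at -0.62 ± 0.09. Ackr1, a chemokine-binding protein of venules, fell by 0.57 ± 0.15 with imiquimod (adjusted p = 0.0117) and was higher by 0.52 ± 0.15 with vanillin (adjusted p = 0.0248), the second a call lost without IMQ replicate 1 or 3 or vanillin replicate 1 or 2. In the same list vanillin against IMQ gave 3 higher and 0 lower. Lymphatic endothelial genes gave 1 higher and 1 lower of 6 for IMQ against mock, namely Reln at 1.16 ± 0.12 and Mmrn1 at -1.23 ± 0.12.

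Genes of other cells moved beside these results. Pericyte genes, of the cells that wrap capillaries, gave 1 higher and 4 lower of 7 in IMQ against mock skin and 2 higher and 1 lower in vanillin against IMQ skin. Their summed intensity ran from 23693 to 25429 in vanillin skin, 20471 to 21179 in IMQ skin and 26955 to 29282 in mock skin. Adipocyte genes gave 0 higher and 6 lower of 8 in IMQ against mock skin and 6 higher and 1 lower in vanillin against IMQ skin. They summed to 227891 to 238490 in vanillin skin, 207137 to 210779 in IMQ skin and 301605 to 324356 in mock skin. Skeletal muscle genes gave 0 higher and 3 lower of 6, then 5 higher and 0 lower, with sums of 350622 to 367478 in vanillin skin, 281720 to 287279 in IMQ skin and 337919 to 376545 in mock skin. The sums of these pericyte, adipocyte and muscle lists were lowest on the IMQ arrays, as was the sum of the 10 genes described here, at 19100 to 20550 in vanillin skin, 14286 to 14535 in IMQ skin and 19627 to 22673 in mock skin. By mean log2 this held for the adipocyte and muscle lists and the 10 genes, but not for the pericyte list. Pericyte means overlapped between vanillin (10.694 to 10.965) and IMQ arrays (10.783 to 10.833), both below mock (11.080 to 11.211). Fibroblast genes gave 2 higher and 4 lower of 6 in IMQ against mock skin and 1 higher and 1 lower in vanillin against IMQ skin, and their sums, 174185 to 183891 in vanillin skin, 171470 to 176725 in IMQ skin and 229948 to 256168 in mock skin, overlapped between vanillin and IMQ arrays. By mean log2 the mock arrays were instead the lowest (13.1065 to 13.1395). The IMQ arrays had 13.1855 to 13.2416 and the vanillin arrays 13.235 to 13.264. The 2 genes higher in IMQ than in mock skin were Col1a1, at 2.24 ± 0.09 (SE), and Lum, at 0.35 ± 0.07. The 4 lower ones included Dpt at -0.89 ± 0.12 and Dcn at -0.54 ± 0.09, and the median of the list was -0.30. The mean log2 thus hides that most genes of the list were lower. Basal keratinocyte genes gave 1 higher and 3 lower of 6, then 0 higher and 1 lower, and their sums overlapped between all groups, at 564912 to 673982 in vanillin skin, 561574 to 644516 in IMQ skin and 574914 to 621754 in mock skin. Their mean log2 overlapped too, at 15.25 to 15.36 (vanillin), 15.31 to 15.36 (IMQ) and 15.30 to 15.36 (mock). Single genes differed between IMQ and mock skin, with Itga6 at 0.77 ± 0.12 (SE) and Krt15 (-0.38), Col17a1 (-0.35) and Itgb4 (-0.28) lower. The part of fat, muscle, pericytes, fibroblasts or keratinocytes in the changes of Cdh5, Icam2 and Icam1 was not tested.

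Platelets also hold the products of Vwf, Selp and Pecam1. Of 8 platelet genes 1 was higher and 3 lower in IMQ against mock skin, and 2 were higher and 0 lower in vanillin against IMQ skin. Over all probes 53.6% were called in the first comparison and 41.2% in the second (24.3% higher and 17.0% lower). With only 8 genes, the platelet share cannot be set apart from these. Their sums ran from 14220 to 15040 in vanillin skin, 14721 to 16897 in IMQ skin and 12554 to 14521 in mock skin, so the vanillin and IMQ arrays overlapped. For vanillin against IMQ the median of the platelet list was 0.22. The 2 higher genes were Gp1bb, at 0.68 ± 0.15 (SE, adjusted p = 0.00717), and Gp9, at 0.42 ± 0.14 (adjusted p = 0.0414). Pf4, a platelet chemokine, read 0.22 ± 0.08 (adjusted p = 0.0662) and Gp1ba -1.44 ± 0.56 (adjusted p = 0.0674). Over all alternatives the higher calls of this list lay between 1 and 5 of 8. Of 7 leukocyte genes 3 were higher and 1 lower in IMQ against mock skin, and the macrophage markers among them parted, with Adgre1 at 2.03 ± 0.09 and Cd68 at -0.60 ± 0.11 (adjusted p = 0.00164). In vanillin against IMQ skin 3 were higher (Csf3r at 1.25, Cd14 at 0.94 and Cd3e at 0.27) and 2 lower (Csf1r at -0.49 and Ptprc at -0.46). The sums of the 7 genes were 30270 to 31972 in vanillin skin, 31120 to 31999 in IMQ skin and 25557 to 28614 in mock skin. Their mean log2 did not overlap, at 11.57 to 11.64 (vanillin), 11.42 to 11.47 (IMQ) and 11.04 to 11.07 (mock). No detection calls were at hand, so a value above 0 does not show that a marker of these lists was expressed. The part of platelets and leukocytes in the results was not tested.

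Other genes followed these patterns closely over the 9 arrays. Each gene was taken by its brightest probe. Symbols of the Gm, Rik and ENSM types, and long ones of only capitals and digits, were left out of the search. By Pearson correlation, which here mostly reflects the 3 group means, the gene nearest to Cdh5 was Prex2 (0.997), to Icam1 Prkab1 (0.997), to Icam2 Scube1 (0.992), to Tek Dlx4 (0.997) and to Vcam1 Adam17 (0.997), which encodes the protease that sheds cell surface proteins. Nearest to Vwf was Alas2 (0.992), the enzyme of haem synthesis in red cell precursors, which read -0.11 in IMQ against mock skin and 1.27 in vanillin against IMQ skin. The nearest to Selp was Scd2 (0.986), to Kdr Nicn1 (0.988), to Sele Dlg3 (0.968) and to Pecam1 Slc15a4 (0.962).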

How the data were processed

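The authors deposited linear probe intensities of 9 one-colour arrays, 3 per group. Per the submitters' processing notes limma was used, in a version that is not stated; the scanner and background correction are not stated either. Values under 1 were set to 1 and log2 was taken of the deposited intensities, with no further normalization or filter, since array medians lay within 0.1 log2 units. Probes were fitted in limma 3.58.1 (R 4.3.3) with 1 coefficient per group, default empirical Bayes, and Benjamini-Hochberg adjustment over all 26423 probes. Probe symbols came from the platform annotation; 18213 matched a current RefSeq symbol, 2126 a synonym, and 38 were kept as given. A gene was represented by its brightest probe. Genes named are the members, the 4 smallest p for IMQ against mock in companion lists, a fixed set of ligands and counter-receptors, and the gene nearest to each member by correlation. Angpt1, Angpt2, Angpt4, Itgax, Itgb1, Csf3r, Cd14, Cd3e, Erg, Pf4 and Gp1bb were added after values were seen. The members and lists were chosen with earlier results of these data known. The procedure was tested on simulated data. Promoter windows came from RefSeq (GRCm38.p6). Same-numbered arrays of different groups had correlations of their deviations from the group means from -0.265 to 0.222, so the numbers were not taken as pairs.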

Additional observations from a re-analysis of the deposited data

How the results depend on the processing

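Of 570 values of the 10 genes under alternatives, 550 kept their direction and side of the threshold, 11 lost a call, 7 gained one and 2 turned in sign. Those 2 were Pecam1 in vanillin against IMQ, never called on its brightest probe, at -0.0241 without IMQ replicate 2 and -0.0306 without vanillin replicate 2, and up to 0.0672 in the other fits with an array left out. With the mean of its probes Pecam1 was called in all comparisons (-1.07 in IMQ against mock skin, then 0.39 and -0.68 in vanillin skin against IMQ and mock skin). Among the 114 genes of the companion lists, calls were kept 3171 times and lost 245 times under the alternatives, over 47 genes. With a replicate block the calls among the 10 genes stayed at 7, 6 and 6 (comparisons in that order), and those over all probes were 13609, 9968 and 6224. With 1 array left out the member counts ran from 5 to 7 for IMQ against mock and stayed at 6 in both vanillin comparisons. At an adjusted p under 0.01 the probes called numbered 5457 (10898 at 0.05) for vanillin against IMQ and 4231 (7045 at 0.05) against mock. Leaving out 1 array gave 6576 (without IMQ replicate 3) to 12805 for vanillin against IMQ, and 6923 without IMQ replicate 1. The cause was not tested. No detection calls were at hand, so how far the dim Sele and Selp probes lay above background is unknown.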
